A study of Mus musculus with 6 samples.

Results

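The aldehyde dehydrogenases described here are the products of 10 of the 18194 genes with a symbol of their own on an Affymetrix mouse array, Aldh1a1, Aldh1a7, Aldh1b1, Aldh2, Aldh3a2, Aldh4a1, Aldh5a1, Aldh8a1, Aldh9a1 and Aldh1l1, which are read by 17 of its 45101 probe sets. A probe set was taken when the platform annotation gave it exactly 1 symbol and that symbol was among the 10. This rule uses no measured value, but the 10 genes were chosen with earlier results of these data known. Liver RNA came from 3 B6.Alb/cre,Pdss2loxP/loxP mutants, 176, 178 and 224 days old, and from 3 B6.Pdss2loxP/loxP controls, 209, 213 and 140 days old, with 1 array per mouse. Both groups carry the loxP-flanked Pdss2 allele, and the mutants also carry a cre recombinase driven by the albumin promoter. The study used it to target hepatocytes, and whether it acted in other cells of the liver was not examined here. All animals were labelled male and lost their food 3 hours before sacrifice, and the genotypes lived in separate cages, so that cage and genotype cannot be told apart. Values are log2 signals per probe set from dChip, and every difference is mutant minus control on the log2 scale.

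Aldehyde dehydrogenases oxidize aldehydes to carboxylic acids and pass the electrons to NAD or NADP. In liver they clear acetaldehyde made from ethanol, fatty aldehydes and products of lipid peroxidation, and they complete steps in the breakdown of proline, of GABA and of tryptophan, in carnitine synthesis and in the making of retinoic acid. NADH formed by the mitochondrial members is oxidized by complex I, which hands its electrons to coenzyme Q (CoQ), the lipid whose side chain is built with the help of Pdss2.

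Pdss2 itself is read by 3 probe sets. On 1444085_at the log2 values were 6.94, 6.88 and 7.05 for mutants 1 to 3, against 7.46, 7.47 and 7.56 for controls 1 to 3, a difference of -0.54 (standard error 0.18, adjusted p = 0.118 from limma). Every mutant lay below every control on this probe set, while on 1430723_at and 1459473_at the groups overlapped, with differences of 0.40 and 0.35 (adjusted p = 0.393 and 0.58 from limma). How these probe sets lie relative to the exon that cre removes is not known here, and so they do not check the deletion.

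Of the 17 aldehyde dehydrogenase probe sets, limma called 1 lower in mutants and 0 higher, past a p of 0.05 adjusted over all 45037 probe sets tested. Over the whole array 0.746% of probe sets were called lower and 1.25% higher. The probe set called was that of Aldh5a1, at -1.36. The study describes many pathways of energy, amino acid and fatty acid metabolism as higher in these mutants, from gene set enrichment over KEGG pathways. By the sample labels, the difference of Aldh5a1 and of most of these probe sets was negative. The measures are unlike, since a gene set can rank higher while some of its genes are lower. On 1444085_at of Pdss2 the labelled mutants were the low group, but that difference did not pass the test. The other Pdss2 probe sets overlapped, with differences of 0.40 and 0.35, so Pdss2 on the arrays does not check the labels. The study also describes Pdss2 RNA, measured apart from the arrays, as reduced in livers of this mutant. Whether labels or the direction of ranking were exchanged on the arrays was not tested. With an unadjusted p below 0.05, 5 of the 17 differences were negative and 3 positive, against 9.54% and 15.7% of all probe sets. All mutants lay below all controls on 6 probe sets (35.3% of 17, against 10.7% of all probe sets) and above them on 3 (17.6%, against 21.2%). The median difference of the 17 was -0.38, and that of all probe sets was 0.17. Because the genes were chosen with earlier results known, these shares and medians describe the list and do not test it. With 1 probe set per gene, the one of highest mean, 3 of the 10 genes were lower and 0 higher, against 4.11% and 4.92% of 18193 genes. These 3 were Aldh5a1, Aldh3a2 and Aldh1b1, with adjusted p of 0.0227, 0.0315 and 0.0338 from limma.

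**Figure D1:**
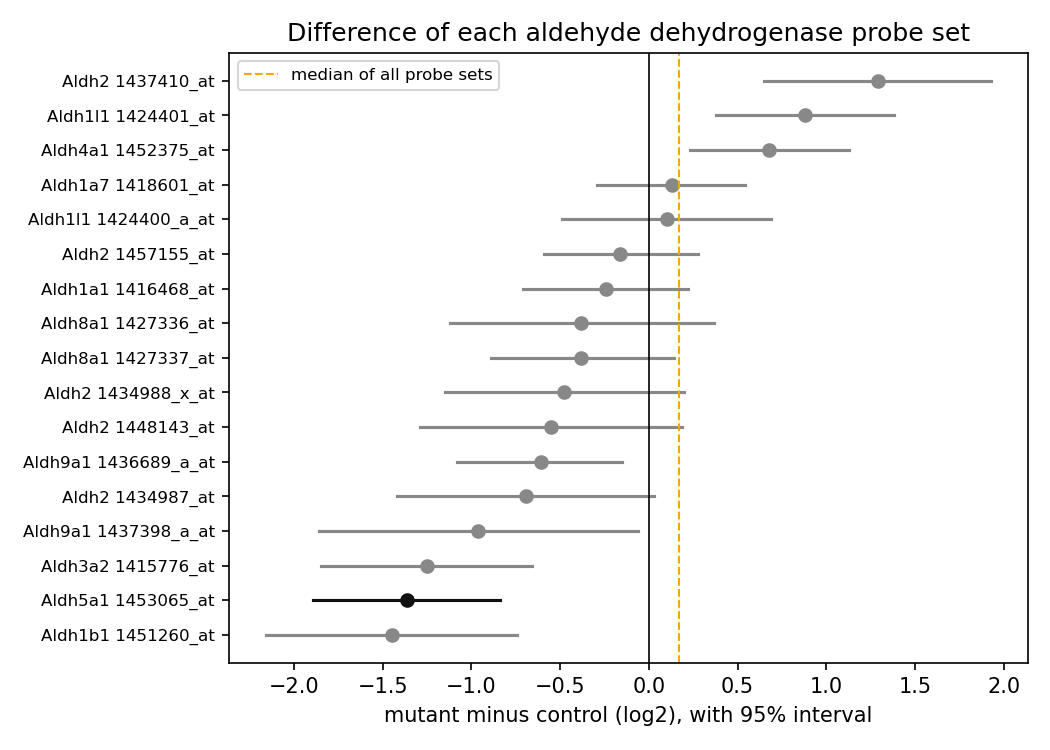
Difference between mutants and controls on the log2 scale (horizontal axis) for each of the 17 probe sets (vertical axis), with bars for the 95% interval from limma, black for the probe set past the adjusted p and grey for the others. Aldh1b1 (-1.45), Aldh5a1 (-1.36) and Aldh3a2 (-1.25) lie farthest to the left and a probe set of Aldh2 (1.29) farthest to the right, and the dashed line marks the median of all probe sets (0.17).

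The stretches before the start sites of the genes with the largest negative differences, and of Aldh4a1, whose difference was positive, are shown first, because they are the regulatory sequence nearest to these transcripts. They are RefSeq sequence of GRCm38.p6, the 250 bases before the annotated start, 5′ to 3′ on the strand of the gene. Capitals mark matches, on either strand, to 5 short motifs, the TATA box (TATAAA), the CCAAT box (CCAAT), the GC box (GGGCGG), the core of the antioxidant response element (TGACNNNGC) and the nuclear receptor hexamer (AGGTCA).
Aldh5a1, chr13:24937662-24937911, minus strand: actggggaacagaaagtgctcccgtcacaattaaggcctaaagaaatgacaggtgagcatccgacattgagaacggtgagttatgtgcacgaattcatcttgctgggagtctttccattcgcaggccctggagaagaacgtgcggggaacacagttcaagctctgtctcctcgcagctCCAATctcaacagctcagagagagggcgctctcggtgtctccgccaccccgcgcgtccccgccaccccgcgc
Aldh3a2, chr11:61267187-61267436, minus strand: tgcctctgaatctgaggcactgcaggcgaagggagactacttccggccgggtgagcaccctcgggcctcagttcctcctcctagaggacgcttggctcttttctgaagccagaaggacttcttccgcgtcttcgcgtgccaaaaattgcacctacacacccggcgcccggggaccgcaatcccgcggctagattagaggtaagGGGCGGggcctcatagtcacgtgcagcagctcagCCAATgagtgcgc
Aldh1b1, chr4:45798772-45799021, plus strand: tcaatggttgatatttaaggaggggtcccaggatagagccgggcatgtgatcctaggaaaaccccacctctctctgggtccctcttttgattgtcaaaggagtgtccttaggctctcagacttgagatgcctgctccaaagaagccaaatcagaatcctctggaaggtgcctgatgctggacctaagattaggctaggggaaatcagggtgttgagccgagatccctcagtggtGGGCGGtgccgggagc
Aldh4a1, chr4:139622644-139622893, plus strand: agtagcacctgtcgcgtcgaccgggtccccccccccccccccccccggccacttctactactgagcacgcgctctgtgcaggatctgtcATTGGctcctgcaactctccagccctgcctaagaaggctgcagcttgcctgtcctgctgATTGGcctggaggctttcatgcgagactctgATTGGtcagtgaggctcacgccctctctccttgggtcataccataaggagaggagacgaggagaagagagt
The capitals are a CCAAT box in Aldh5a1, a GC box and a CCAAT box in Aldh3a2, a GC box in Aldh1b1 and 3 CCAAT boxes in Aldh4a1. Among 32851 promoters of the same length, 33.8% held a CCAAT box and 32.7% a GC box. None of the 4 windows held a match to TATAAA (12.4% of all promoters), to TGACNNNGC (10.2%) or to AGGTCA (14.0%). Among the other members, Aldh1a7 held a match to TATAAA, Aldh9a1 to TGACNNNGC and Aldh1l1 to AGGTCA. A match describes letters in the window and no more. Promoters of 9 of the 10 genes were in the table used.

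Aldh5a1 encodes succinate semialdehyde dehydrogenase, the mitochondrial enzyme that ends the breakdown of GABA and feeds succinate into the TCA cycle. On its only probe set, 1453065_at, the log2 values were 7.86, 7.35 and 7.61 for mutants 1 to 3 and 8.69, 9.17 and 9.04 for controls 1 to 3. The groups did not overlap. Aldh5a1 fell by 1.36 on the log2 scale (standard error 0.23, 95% interval -1.89 to -0.84, n = 3 in each group, adjusted p = 0.0412 from limma), so that mutants had 38.9% of the control signal. This difference lay between -1.52 and -1.23 under 13 alternatives, and the call was made in 6 of them. It was lost with quantile normalization (-1.24, adjusted p = 0.0507) and with replicate number as a block (-1.36, 0.191), and without mutant 2 (-1.23, adjusted p = 0.116), mutant 3 (-1.36, 0.111), control 1 (-1.50, 0.158), control 2 (-1.26, 0.188) or control 3 (-1.33, 0.0934), all from limma. Over the whole array limma called 3 probe sets without control 1 and 0 without mutant 2, mutant 3, control 2 or control 3, so the calls of pathway genes given below were lost as well without any 1 of these last 4 mice.

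GABA is made by Gad1 and Gad2 and transaminated by Abat to the substrate of Aldh5a1. None of the 6 probe sets of these 3 genes passed the test. At an unadjusted p under 0.05, 1 was higher, against 15.7% of all probe sets. On 1433855_at, Abat read 8.70, 6.98 and 6.99 in mutants and 8.43, 8.34 and 9.07 in controls (-1.05, adjusted p = 0.214 from limma). Mutants 2 and 3 were low and mutant 1 lay among the controls, unlike in Aldh5a1, where all mutants were low. By the mean absolute difference of centred values over the 6 arrays, the genes whose pattern was most like that of Aldh5a1 were Rbm45, which encodes an RNA-binding protein (0.039 on the log2 scale), A930017M01Rik (0.076) and Pgrmc2, which encodes a membrane protein that binds heme (0.095).

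Aldh1b1 and Aldh2 encode the mitochondrial enzymes that oxidize acetaldehyde. Aldh1b1, on 1451260_at, read 6.07, 5.69 and 5.00 for mutants 1 to 3 and 6.96, 6.81 and 7.36 for controls 1 to 3. All mutants lay below all controls, and mutant 3 was lowest, at a dim signal below the lower quartile of its array (5.34). The difference was -1.45 (standard error 0.31, 95% interval -2.16 to -0.74, n = 3 in each group, adjusted p = 0.0552 from limma). It passed the test in 5 of 13 alternatives, among them the use of 1 probe set per gene, and its range over them was -1.69 to -1.16. The pass among bright probe sets gives no support, since the mutant mean (5.59) was below every array median and the probe set counted as bright through its controls (7.04).

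Aldh2, the main acetaldehyde dehydrogenase of liver, is read by 5 probe sets, and their differences did not all have the same sign. On 1448143_at the values were 11.94, 11.30 and 10.81 for mutants 1 to 3 and 11.76, 11.69 and 12.25 for controls 1 to 3, a difference of -0.55 (95% interval -1.29 to 0.19, adjusted p = 0.321 from limma). Here mutant 1 lay within the controls and mutants 2 and 3 lay below them. On 1437410_at mutants read 10.18, 10.93 and 10.69 and controls 9.66, 9.30 and 8.96, so that all mutants were above all controls. That difference was 1.29 (standard error 0.28, 95% interval 0.65 to 1.93, adjusted p = 0.0562 from limma). It passed the test in 3 of 12 alternatives, and its range over them was 1.12 to 1.5.

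The other 3 probe sets of Aldh2 had negative differences, -0.69 on 1434987_at (adjusted p = 0.212 from limma), -0.48 on 1434988_x_at (0.352) and -0.16 on 1457155_at (0.649). Within each array, 1437410_at minus 1448143_at was -1.76, -0.37 and -0.12 for mutants 1 to 3 and -2.11, -2.40 and -3.29 for controls 1 to 3. The groups did not overlap, and the change of this difference was 1.85 (exact two-sided permutation test, p = 0.1, the smallest that 3 mice against 3 allow). This pair was chosen after its values were seen. With all mice and no covariate, none of the 5 probe sets passed the test across all probe sets. The mean of the 5 differed by -0.12 (exact two-sided permutation test, p = 0.7). Which part of the transcript each of them reads was not analysed here.

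**Figure D2:**
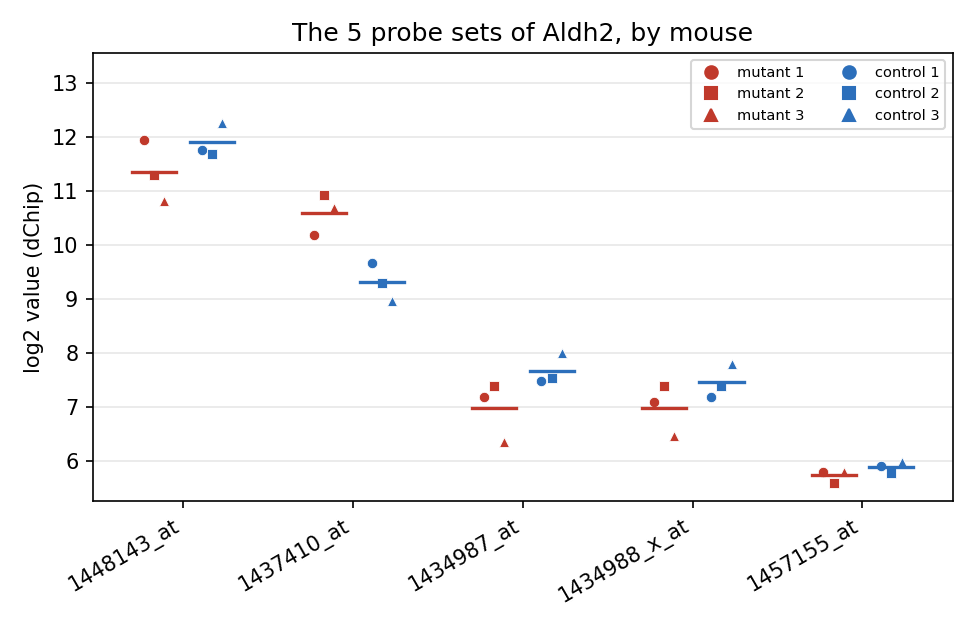
The 5 probe sets of Aldh2 (horizontal axis) with their log2 values (vertical axis), each mouse as a symbol in red for mutants or blue for controls and each group's mean as a bar. Mutants range from 10.18 to 10.93 on 1437410_at, above the controls (8.96 to 9.66), and have the lower mean on the remaining 4.

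Genes that form acetaldehyde and other aldehydes, the alcohol dehydrogenases, amine oxidases, Cyp2e1 and catalase among them, gave 17 probe sets from 12 genes, and none was called in either direction. With an unadjusted p below 0.05, 5 differences were negative and 2 positive, against 9.54% and 15.7% of all probe sets. The median difference was -0.22. Adh1, the principal alcohol dehydrogenase of liver, read 12.73 ± 0.18 in mutants and 13.13 ± 0.14 in controls (SD, n = 3 in each group), a difference of -0.40 (adjusted p = 0.252 from limma), with every mutant below every control. Cyp2e1, the ethanol-oxidizing cytochrome P450, differed by -0.22 (adjusted p = 0.529 from limma). The largest difference of the list was that of Maob, at -2.26 (adjusted p = 0.0752 from limma). It read 9.12, 6.75 and 7.03 in mutants and 9.44, 10.01 and 10.25 in controls. Catalase differed by 0.48 and -0.58 on its probe sets (adjusted p = 0.148 and 0.166 from limma), with no overlap on either. None of the 6 probe sets of Acss1 and Acss2, whose products turn acetate into acetyl-CoA, was called, also at an unadjusted p under 0.05.

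Other enzymes that reduce, oxidize or conjugate aldehydes gave 17 probe sets from 9 genes, with a median difference of -0.52. Of these, 1 was called lower and 0 higher, against 0.746% and 1.25% of all probe sets. At an unadjusted p under 0.05 the counts were 6 and 1, against 9.54% and 15.7%. The one called reads Glo1, the glyoxalase that removes methylglyoxal, at 8.67, 8.30 and 8.07 in mutants and 10.08, 10.03 and 9.53 in controls. On this probe set, 1436070_at, Glo1 fell by 1.53 on the log2 scale (standard error 0.25, n = 3 in each group, adjusted p = 0.0385 from limma). Its other probe sets differed by -1.0, -1.37 and -0.21 (adjusted p = 0.109, 0.208 and 0.641 from limma).

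Aldh3a2 encodes the fatty aldehyde dehydrogenase of the endoplasmic reticulum membrane, which oxidizes long-chain aldehydes. On its only probe set, 1415776_at, mutants 1 to 3 read 8.94, 8.22 and 8.51 and controls 1 to 3 read 9.56, 9.76 and 10.12. All mutants lay below all controls. The difference was -1.25 (standard error 0.26, 95% interval -1.85 to -0.66, n = 3 in each group, adjusted p = 0.0532 from limma), or 41.9% of the control signal. It passed the test in 4 of 13 alternatives, and its range over them was -1.45 to -1.09.

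Aldh4a1 encodes the mitochondrial pyrroline-5-carboxylate dehydrogenase, which makes glutamate from the product of proline oxidation. On 1452375_at mutants 1 to 3 read 9.35, 9.27 and 9.05 and controls 1 to 3 read 8.70, 8.42 and 8.50. All mutants lay above all controls, on an array where 21.2% of probe sets did so. The difference was 0.68 (standard error 0.19, 95% interval 0.23 to 1.13, n = 3 in each group, adjusted p = 0.0887 from limma), and median centring of the arrays gave 0.52. It passed the test in 1 of 13 alternatives, among bright probe sets (adjusted p = 0.0496 from limma).

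Of 5 measured genes of proline and ornithine metabolism, each with 1 probe set, none was called. With an unadjusted p below 0.05, 2 differences were positive and 1 negative, against 15.7% and 9.54% of all probe sets. Prodh, the mitochondrial proline oxidase that passes electrons from proline to the respiratory chain, read 11.30, 11.30 and 11.42 in mutants and 10.59, 10.19 and 10.38 in controls (0.96, adjusted p = 0.0529 from limma). Prodh2, the corresponding enzyme for hydroxyproline, differed by 1.12 (adjusted p = 0.0681 from limma), and Oat, which makes the same pyrroline from ornithine, by -0.41 (adjusted p = 0.374 from limma). For Prodh and Prodh2, as for Aldh4a1, all mutants were above all controls. For Pycrl (-0.61, adjusted p = 0.114 from limma) and Hoga1 (-0.43, 0.258) all mutants were below all controls. The median difference of the 5 was -0.41.

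Aldh9a1 encodes a cytosolic enzyme that oxidizes aminoaldehydes, among them the aldehyde intermediate of carnitine synthesis. On 1436689_a_at mutants 1 to 3 read 11.12, 10.76 and 10.66 and controls 1 to 3 read 11.50, 11.43 and 11.46, with no overlap. The difference was -0.61 (standard error 0.20, 95% interval -1.08 to -0.15, adjusted p = 0.117 from limma). On 1437398_a_at mutants read 8.79, 7.36 and 7.43 and controls 8.86, 8.58 and 9.02, a difference of -0.96 (95% interval -1.86 to -0.06, adjusted p = 0.173 from limma). Mutant 1 lay within the controls on this second probe set, which in 12 alternatives was called once, without that mouse (-1.43, adjusted p = 0.0175 from limma).

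Around Aldh9a1, 12 probe sets read 4 genes of carnitine synthesis and uptake. Of these, 1 was called lower and 1 higher, against 0.746% and 1.25% of all probe sets. Tmlhe, which encodes the first enzyme of carnitine synthesis, fell on 1420725_at (-1.49, standard error 0.28, adjusted p = 0.0477 from limma), where mutants read 5.82, 4.82 and 5.34 and controls 7.0, 6.71 and 6.74. Its other probe sets differed by -1.25, -0.02 and -0.07 (adjusted p = 0.0709, 0.955 and 0.918 from limma). On 1420725_at the value of mutant 2 (4.82) was dim, below the lower quartile of its array (5.40). Bbox1, the last enzyme of the pathway, differed by -2.18 and -1.29 on its probe sets (adjusted p = 0.0851 and 0.0836 from limma), with all mutants below all controls on both. On the former, 1419618_at, mutants read 9.21, 6.73 and 7.02 and controls 9.43, 9.92 and 10.15. Mutant 1 thus lay just under the lowest control, and mutants 2 and 3 lay far below. Slc22a5, the carnitine transporter of the plasma membrane, rose on 1450395_at (1.69, standard error 0.25, adjusted p = 0.0345 from limma), from 7.43, 7.79 and 7.53 in controls to 9.02, 9.73 and 9.09 in mutants, while 1421848_at differed by 0.01 (adjusted p = 0.985 from limma).

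Aldh1a1 and Aldh1a7 are neighbouring genes of chromosome 19 that encode close cytosolic paralogs, of which Aldh1a1 makes retinoic acid from retinal. Their resemblance is visible in the sequence before a start site of Aldh1a1 and before that of Aldh1a7, in which capitals again mark motif matches.
Aldh1a1, chr19:20601718-20601967, plus strand: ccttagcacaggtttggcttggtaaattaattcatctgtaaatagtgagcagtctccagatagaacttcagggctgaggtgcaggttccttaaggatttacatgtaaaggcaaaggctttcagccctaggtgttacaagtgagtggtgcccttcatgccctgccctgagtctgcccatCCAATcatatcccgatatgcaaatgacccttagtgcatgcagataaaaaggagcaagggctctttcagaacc
Aldh1a7, chr19:20727557-20727806, minus strand: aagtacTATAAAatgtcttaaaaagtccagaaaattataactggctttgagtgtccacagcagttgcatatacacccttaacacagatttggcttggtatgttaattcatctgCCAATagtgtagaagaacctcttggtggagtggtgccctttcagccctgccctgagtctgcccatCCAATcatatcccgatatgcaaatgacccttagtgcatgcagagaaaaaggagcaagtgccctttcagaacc
In the 75 bases next to the start the 2 windows were identical at 72 positions (96.0%), against 51.6% over all 250 bases with no gap allowed, and both held a CCAAT box at the same distance from the start. The table holds a further start of Aldh1a1, whose 75 bases matched those of Aldh1a7 at 25.3% of positions.

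Aldh1a1 read 12.83, 12.46 and 12.43 for mutants 1 to 3 and 12.72, 12.83 and 12.91 for controls 1 to 3, a difference of -0.24 (95% interval -0.71 to 0.22, adjusted p = 0.491 from limma). Aldh1a7 read 11.90, 11.82 and 11.84 in mutants and 11.65, 11.71 and 11.82 in controls, a difference of 0.13 (95% interval -0.29 to 0.54, adjusted p = 0.704 from limma). The groups overlapped for both genes, and the sign of Aldh1a7 turned with quantile normalization (-0.03) and with median centring (-0.04). Within each array Aldh1a1 minus Aldh1a7 was 0.94, 0.64 and 0.59 in mutants and 1.07, 1.12 and 1.09 in controls, a change of -0.37 with no overlap (exact two-sided permutation test, p = 0.1). How far transcripts of each paralog bind the other's probes was not tested, so the values of this pair are uncertain.

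Of 22 probe sets from 16 genes of retinoid handling, 1 was called lower and 0 higher, against 0.746% and 1.25% of all probe sets. At an unadjusted p under 0.05 the counts were 7 and 4, against 9.54% and 15.7%. Rdh10, a retinol dehydrogenase that makes retinal, fell by 1.67 on the log2 scale on 1426968_a_at (standard error 0.33, adjusted p = 0.0499 from limma). Mutants read 7.87, 6.69 and 6.96 and controls 8.74, 9.11 and 8.68. On 1460632_at Rdh10 differed by -0.27 (adjusted p = 0.424 from limma).

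Aldh8a1 encodes a cytosolic dehydrogenase that acts on retinal and on a semialdehyde of the kynurenine pathway. On 1427336_at mutants 1 to 3 read 9.66, 10.35 and 9.51 and controls 1 to 3 read 10.49, 10.48 and 9.67, and on 1427337_at they read 10.47, 11.00 and 10.93 against 11.01, 11.17 and 11.36. Both probe sets differed by -0.38 (95% intervals -1.12 to 0.37 and -0.89 to 0.14, adjusted p = 0.509 and 0.33 from limma). The groups overlapped on the former, and on the latter the highest mutant (11.00) was just under the lowest control (11.01). None of the 13 probe sets from 6 genes of the kynurenine pathway was called. With an unadjusted p below 0.05, 3 differences were negative and 2 positive, against 9.54% and 15.7% of all probe sets.

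Aldh1l1 encodes cytosolic formyltetrahydrofolate dehydrogenase, which releases carbon from the folate pool as carbon dioxide. On 1424400_a_at mutants 1 to 3 read 11.86, 11.14 and 11.33 and controls 1 to 3 read 11.27, 11.14 and 11.62, and the groups overlapped (difference 0.10, 95% interval -0.49 to 0.69, adjusted p = 0.841 from limma). The sign turned with median centring (-0.06) and without mutant 1 (-0.11). On 1424401_at mutants read 7.98, 7.76 and 7.98 and controls 7.04, 7.30 and 6.75, all mutants above all controls, with a difference of 0.88 (standard error 0.21, 95% interval 0.38 to 1.38, adjusted p = 0.0681 from limma). The difference on 1424401_at passed the test in 2 of 12 alternatives. Within arrays 1424401_at minus 1424400_a_at changed by 0.78, with overlapping groups (exact two-sided permutation test, p = 0.2).

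Of 23 probe sets from 9 folate genes, 1 was called lower and 0 higher, against 0.746% and 1.25% of all probe sets. With an unadjusted p below 0.05 the counts were 10 and 1, against 9.54% and 15.7%. The one called, 1436704_x_at, reads Mthfd1, the cytosolic enzyme that interconverts folate forms, and fell by 2.05 on the log2 scale (standard error 0.34, adjusted p = 0.0391 from limma). Mutants read 5.91, 4.98 and 4.63 and controls 7.39, 7.29 and 6.98. The values of mutants 2 and 3 were dim, below the lower quartiles of their arrays (5.40 and 5.34). The other probe sets of Mthfd1 differed by -0.98 and -0.77 (adjusted p = 0.0979 and 0.161 from limma).

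**Figure D3:**
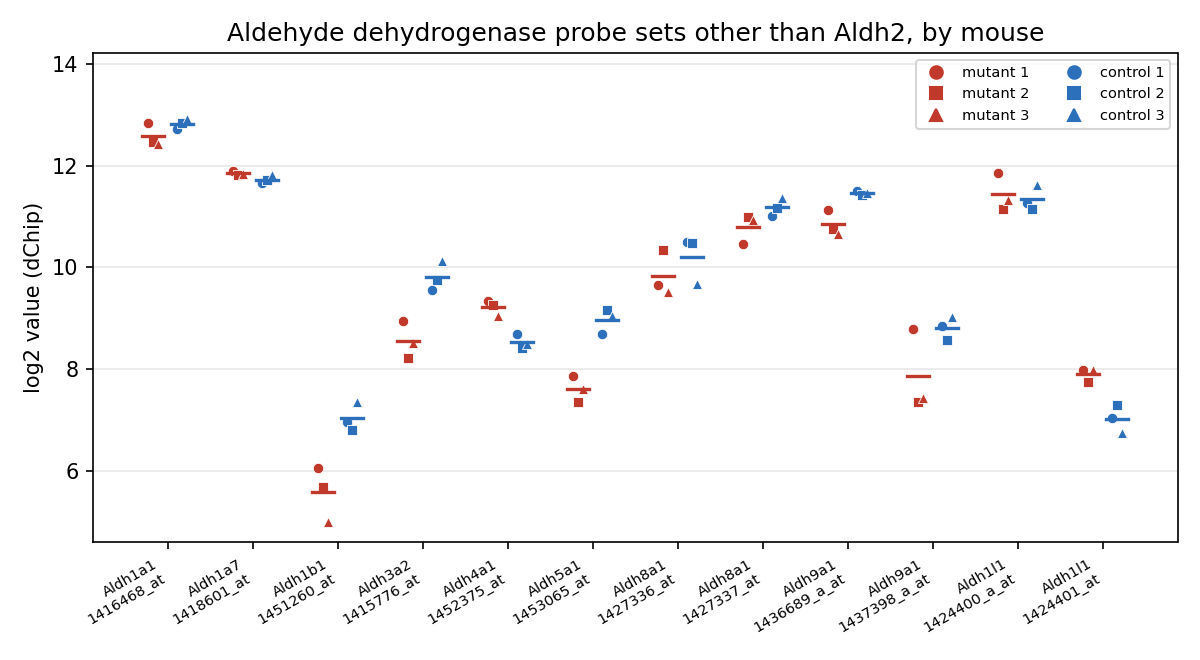
The 12 probe sets of the 9 genes other than Aldh2 (horizontal axis) with their log2 values (vertical axis), each mouse as a symbol in red for mutants or blue for controls and each group's mean as a bar. Aldh1b1, Aldh3a2 and Aldh5a1 show mutants wholly below controls, Aldh4a1 and 1424401_at of Aldh1l1 show them wholly above, and on 1437398_a_at of Aldh9a1 mutant 1 (8.79) sits with the controls.

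By compartment, the 4 mitochondrial genes had 8 probe sets, 6 of negative and 2 of positive difference, with a median of -0.51. Aldh2 gave 5 of these 8 and 4 of the 6 negative differences, so genes do not count equally here. Of the others, Aldh1b1 and Aldh5a1 were negative and Aldh4a1 positive. The 5 cytosolic genes also had 8 probe sets, 5 negative and 3 positive, with a median of -0.31. Both compartments held probe sets with all mutants below all controls (3 and 2 of the 8, against 10.7% of all probe sets) and with all mutants above them (2 and 1, against 21.2%). The difference between compartments was not tested.

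The remaining aldehyde dehydrogenase genes on the array gave 19 probe sets from 10 genes, and limma called none higher and none lower. At an unadjusted p under 0.05, 3 were lower and 3 higher, against 9.54% and 15.7% of all probe sets. Their median difference was 0.22. All mutants lay above all controls on 5 of them and below on 2, against 21.2% and 10.7% of all probe sets. Aldh7a1, which oxidizes the semialdehyde of lysine breakdown, read 6.44, 6.43 and 6.65 in mutants and 5.81, 5.78 and 5.92 in controls on 1448137_at (0.67, adjusted p = 0.0823 from limma), while its other probe sets differed by -0.08 and -0.81 with overlapping groups. Aldh6a1, the mitochondrial enzyme of valine breakdown, read 11.21, 10.96 and 10.76 in mutants and 11.54, 11.83 and 11.52 in controls (-0.65, adjusted p = 0.112 from limma). All mutants lay below all controls on its probe set.

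**Figure D4:**
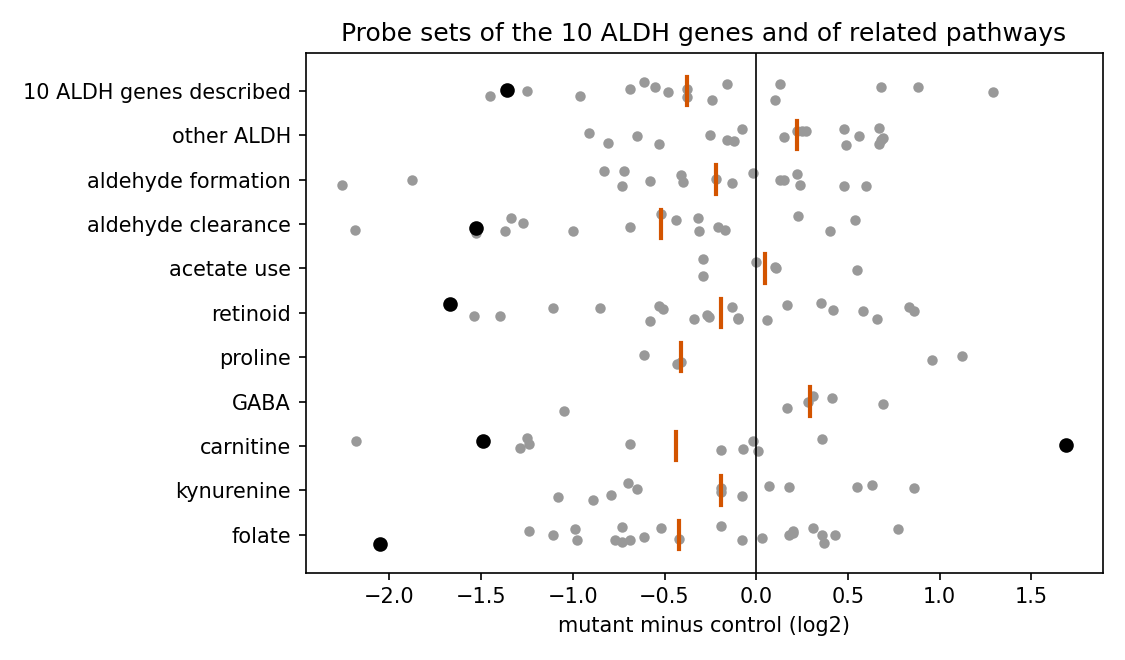
Difference between mutants and controls on the log2 scale (horizontal axis) of each probe set of the 10 genes and of each pathway list (vertical axis, spread at random within a row), with black points for probe sets past the adjusted p, grey points for the others and an orange line at the median. The 10 genes have a median of -0.38 with 1 black point, and the carnitine list has a black point on either side of 0.

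The mice of the mutant group were unequal across these genes. The median over the 17 probe sets of the value minus the control mean was -0.08, -0.27 and -0.71 for mutants 1 to 3 and -0.08, -0.05 and 0.10 for controls 1 to 3. Mutant 1 was the mutant nearest to the control mean on 9 of the 17 probe sets, mutant 2 on 6 and mutant 3 on 2. Without mutant 1, limma called 4 of the 17 lower and 1 higher, against 5.66% and 2.86% of all probe sets.

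Some other measures of these arrays separated the groups. The summed level of hepatocyte markers did not, at 15.98 to 16.30 in mutants and 16.28 to 16.31 in controls. None of their 18 probe sets was called, and their median difference was -0.3. All mutants lay below all controls on 5 of the 18 and above them on 2, against 10.7% and 21.2% of all probe sets. A negative median was thus not particular to the aldehyde dehydrogenases. The summed level of 8 sinusoidal endothelial markers was 12.38 to 13.18 in mutants and 11.14 to 12.02 in controls. Of their 13 probe sets, 2 were called higher, those of Stab2 and Stab1, against 1.25% of all probe sets. All mutants lay above all controls on 6 of the 13, against 21.2%, while Kdr, Pecam1 and Clec4g overlapped on all of theirs. The summed level of 6 Kupffer cell markers was 11.19 to 11.99 in mutants and 10.11 to 11.17 in controls, with none called. That of 4 bile duct markers was 8.30 to 8.71 and 7.89 to 8.06, also with none called. The summed levels of 8 pericentral hepatocyte markers overlapped. On their 15 probe sets the median difference was 0.11. Those called higher were 2 of Slc1a2, against 1.25% of all probe sets, and 0 were called lower. The other probe sets of Slc1a2 differed by 2.32, 0.11 and 0.02, the last 2 with overlapping groups. Among the other genes of this list, Glul differed by -0.6 and 0.55 on its probe sets and Gulo by -0.75. None of the 88 marker probe sets had a value of 0. In bulk liver, fewer cells of a type and less RNA per cell cannot be told apart. The 3′ minus 5′ signal of Gapdh was 0.45, -1.06 and -1.78 for mutants 1 to 3 and 2.02 to 2.31 in controls, in the same order of mutants as the medians above, and the spiked-in BioB, BioC and BioD transcripts were higher on mutant arrays by 1.36 to 1.82. The part of these measures in the aldehyde dehydrogenase differences was not tested.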

How the data were processed

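Liver RNA of 3 mutants and 3 controls was hybridized to Affymetrix mouse arrays, 1 per animal, and the sample titles gave the groups. Normalization and summary into 1 log2 value per probe set were done by the authors in dChip, from perfect-match probes alone, and these deposited log2 values were taken unscaled. Not given in the sources used here are the version of dChip, the baseline array and the signal over background. The methods name an array of C. elegans although the probe sets are those of a mouse array. The array medians ran from 5.92 to 6.24, and precision is limited by the small number of arrays.

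All probe sets except 64 hybridization controls entered 1 linear model per probe set (limma 3.58.1, R 4.3.3; lmFit, eBayes) on all 6 arrays with no covariate, and calls needed a p below 0.05 after Benjamini-Hochberg adjustment. For single values, all 20 assignments of 3 mice against 3 were enumerated in an exact two-sided permutation test. The comparison was tested on simulated data. Intervals cover 95% and come from the moderated variance of limma. Symbols came from the platform annotation, in which 34958 probe sets had 1 symbol, 932 several and 9211 none.

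The 10 genes, the 10 pathway lists and the marker lists were chosen with earlier results of these data known. The text names every probe set of the 10 genes, Pdss2, up to 3 called probe sets of each list, and the 3 genes nearest in pattern to the probe set of smallest p. The other list genes named were picked after their values were seen, for their place next to a described enzyme or for the size or direction of their difference. The summed level of a marker list is the log2 of the summed linear signals of the brightest probe set of each gene. Alternatives were other scalings, bright probe sets, 1 probe set per gene, the trend and robust options of eBayes, replicate number as a block, age, and leaving out each mouse. Promoters were searched with Python 3.11.15 and figures drawn with matplotlib 3.10.9.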

Additional observations from a re-analysis of the deposited data

How the results depend on the processing

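Of 213 differences recomputed for single probe sets, 186 kept their direction and their side of the threshold, 16 newly passed, 7 no longer passed and 4 changed sign. The sign changes were those of Aldh1a7 with quantile normalization (-0.03) and median centring (-0.04), and of 1424400_a_at of Aldh1l1 with median centring (-0.06) and without mutant 1 (-0.11, in a range up to 0.25 with a mouse left out). The number of probe sets called lower in mutants, 1 with all mice, was 0 with quantile normalization or a replicate block, 2 with trend and robust eBayes, 3 with bright probe sets, with 1 probe set per gene and with age as a covariate, and 0 to 4 with a mouse left out. The bright probe sets called lower include Aldh1b1, which is bright in controls alone. The number called higher, 0 with all mice, was 3 with bright probe sets, 2 with age and 0 to 1 with a mouse left out. Over all probe sets, 897 were called with all mice, 689 with quantile normalization, 300 with median centring, 1413 with trend and robust eBayes, 2515 with age, 3840 without mutant 1, 3 without control 1 and 0 without mutant 2, mutant 3, control 2 or control 3. Filtering to bright probe sets (3050 of 22518 called) and to 1 probe set per gene (1643 of 18193) also reduces the number of tests. Same-numbered mutants and controls did not deviate together (correlations across probe sets of 0.06, -0.50 and -0.56 for numbers 1 to 3). Mutants 2 and 3 correlated best with controls 3 and 1 (0.62 and 0.45). Deviations from the means of 3 arrays cannot show whether same-numbered arrays shared any handling. With the replicate block 0 probe sets were called on the array. Median centring moved the median difference of all probe sets from 0.17 to 0.01. Without detection calls, the limit that signal over background sets on dim values, such as those of Aldh1b1 in mutants, is unknown.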
